A study of Mus musculus with 19 samples.

Results

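Whether beta-glucan acted differently in 2 diets was examined across the liver transcriptome of male mice. For each gene, the beta-glucan effect in the WSD diet (WSD+beta-Glucan against WSD) was set against its effect in the CTRL diet (CTRL+beta-Glucan against CTRL). All 19 libraries of the series entered, chosen by their treatment label: 4 of WSD+beta-Glucan, 5 of WSD, 5 of CTRL+beta-Glucan and 5 of CTRL. The animals carried the genotype label C57Bl/J6, an inbred wild-type strain, and every library is from liver at 24 weeks. Thus, by the labels of treatment, genotype, tissue and time, the beta-glucan groups differ from their diet controls by the added fibre alone. Library titles, which do not fall evenly on the groups, are taken up below. WSD is not spelled out in the labels and is used as a group name. By its title, the series is about oat beta-glucan, gut microbes and fatty liver disease. Nothing in the labels ties a library to an animal or a cage. P-values here therefore reflect how far libraries of 1 group spread, and that spread could be technical.

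Beta-glucan is a soluble cereal fibre that mammalian enzymes do not digest, that gut microbes ferment, and that myeloid cells can bind through the receptor dectin-1. In a fatty, inflamed liver, monocytes enter and become lipid-associated macrophages, while hepatocytes lose part of their oxidative and detoxifying gene expression. Bacterial products and nucleic acids that reach the liver are sensed by Toll-like receptors, whose signals raise chemokines and interferon-stimulated genes. An interaction asks whether the same fibre changes such genes by a different factor in each diet. The difference of effects is given on the log2 scale, with the effect in CTRL subtracted from the effect in WSD: a negative value means that a gene was lower with beta-glucan in WSD than it was in CTRL, relative to the diet control.

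Libraries held between 17253823 and 23450232 estimated reads, and 13594 genes were tested. No 2 libraries held identical counts. On principal component 1 of TMM-scaled log2 CPM (library-scaled read counts), with 58.3% of the variance, WSD+beta-Glucan lay at -37.6 ± 11, WSD at -63.8 ± 9.75, CTRL+beta-Glucan at 45.1 ± 11 and CTRL at 48.9 ± 9.83 (mean ± SD). The libraries whose titles start with 37, 39 and 40 had the highest values on the second component, which held 6.68% of the variance. There WSD+beta-Glucan replicate 1 was at 18.2, and replicates 1 and 2 of CTRL+beta-Glucan were at 51.8 and 18.2. The other libraries ran from -21.6 (CTRL replicate 4) to 10.3 (CTRL replicate 2), so only CTRL+beta-Glucan replicate 1 lay far out. The libraries with these 3 titles all belong to beta-glucan groups. Many results are given with and without them, but not every result that moves. Hepatocyte markers summed to 107100 to 144600 CPM in WSD+beta-Glucan, 92960 to 110000 in WSD, 170100 to 229200 in CTRL+beta-Glucan and 161100 to 199200 in CTRL. Of the markers of other organs, Prss1 (1 of 13 of the exocrine pancreas) and Myh4 and Myh6 (2 of 14 of muscle) were at 0 in every library. The same held for 0 of 12 adipose and 0 of 11 intestinal markers. Ctrb1 of the exocrine pancreas had 597 reads over all libraries. Tested adipose markers summed to between 1937 (WSD) and 7689 CPM (CTRL), and intestinal ones to between 82.8 (CTRL+beta-Glucan) and 233 CPM (WSD+beta-Glucan). These sums leave out the markers with too few reads to be tested. Among adipose ones these were Adipoq, with 22 reads over all libraries, Plin1 (16), Retn (7), Lep (1) and Ucp1 (1). The untested intestinal markers had 1 to 24 reads each.

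In all, 1 gene passed the test. Unc93b1, a membrane protein that carries the nucleic acid-sensing Toll-like receptors from the endoplasmic reticulum to endosomes, fell with beta-glucan in WSD and was slightly higher with it in CTRL, and the difference of effects was -0.76 ± 0.12 (log2, SE; 95% interval -1.0 to -0.51; edgeR adjusted p = 0.0366). It was the 1 gene called among 13594, or 0.00736%. Unc93b1 (ENSMUSG00000036908, chromosome 19) had 51.0, 43.2, 53.7 and 46.7 CPM in WSD+beta-Glucan, against 72.7, 70.8, 66.5, 62.9 and 70.7 CPM in WSD. It had 35.2, 38.4, 35.7, 33.4 and 32.3 CPM in CTRL+beta-Glucan, against 27.6, 25.0, 32.3, 31.2 and 30.2 CPM in CTRL. Every WSD+beta-Glucan library was below every WSD library. All CTRL+beta-Glucan libraries were above all CTRL libraries, though the closest pair was equal at 1 decimal.

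The effect of beta-glucan on Unc93b1 was 0.708-fold in WSD (log2 -0.50 ± 0.08, adjusted p = 0.0214) and 1.2-fold in CTRL (log2 0.26 ± 0.08, adjusted p = 0.805). Read the other way, WSD+beta-Glucan exceeded CTRL+beta-Glucan by 0.48 ± 0.08 on the log2 scale, and WSD exceeded CTRL by 1.23 ± 0.08. On the length-scaled TPM values of the deposited files, the gene stood at 34.0 ± 5.32 TPM in WSD+beta-Glucan (SD, n = 4), 54.4 ± 5.59 in WSD (n = 5), 19.3 ± 2.12 in CTRL+beta-Glucan (n = 5) and 15.6 ± 1.27 in CTRL (n = 5). Much of that level came from a pair of transcripts. The protein-coding Unc93b1-203 averaged 23.3 ± 2.35 TPM in WSD+beta-Glucan, 32.7 ± 4.43 in WSD, 12.9 ± 1.67 in CTRL+beta-Glucan and 11.6 ± 1.25 in CTRL. The retained-intron transcript Unc93b1-201 averaged 9.23 ± 4.71 TPM in WSD+beta-Glucan, 19.4 ± 6.69 in WSD, 5.71 ± 1.53 in CTRL+beta-Glucan and 3.46 ± 1.41 in CTRL. The call is fragile: Unc93b1 missed the threshold in 15 of 19 fits that left out 1 library, with adjusted p up to 0.171, and without the 3 libraries it had -0.73 and an adjusted p of 0.104. Its difference nevertheless lay between -0.81 and -0.70 in all 19 of those fits.

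The receptors that depend on Unc93b1 were read at far lower levels, and they are named here for that link, after their values were seen. Tlr3, a sensor of double-stranded RNA, averaged 2.80 ± 0.745 TPM in WSD+beta-Glucan, 3.60 ± 0.889 in WSD, 1.64 ± 0.511 in CTRL+beta-Glucan and 1.11 ± 0.309 in CTRL. Tlr13, which in mice senses bacterial ribosomal RNA, averaged 1.09 ± 0.23 TPM in WSD+beta-Glucan, 2.39 ± 0.598 in WSD, 0.215 ± 0.141 in CTRL+beta-Glucan and 0.168 ± 0.082 in CTRL. The differences of effects were -0.40 ± 0.32 for Tlr3, -0.60 ± 0.63 for Tlr7, 0.99 ± 0.79 for Tlr8, -0.56 ± 0.81 for Tlr9 and -1.28 ± 0.53 for Tlr13. None passed the edgeR threshold, and Tlr13 alone had an unadjusted p under 0.05 (0.025). For the others the intervals are wide, from -1.06 to 0.26 for Tlr3, and a difference of the size seen for Unc93b1 lies inside each of them but that of Tlr8, which runs from -0.65 to 2.64.

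**Figure D1:**
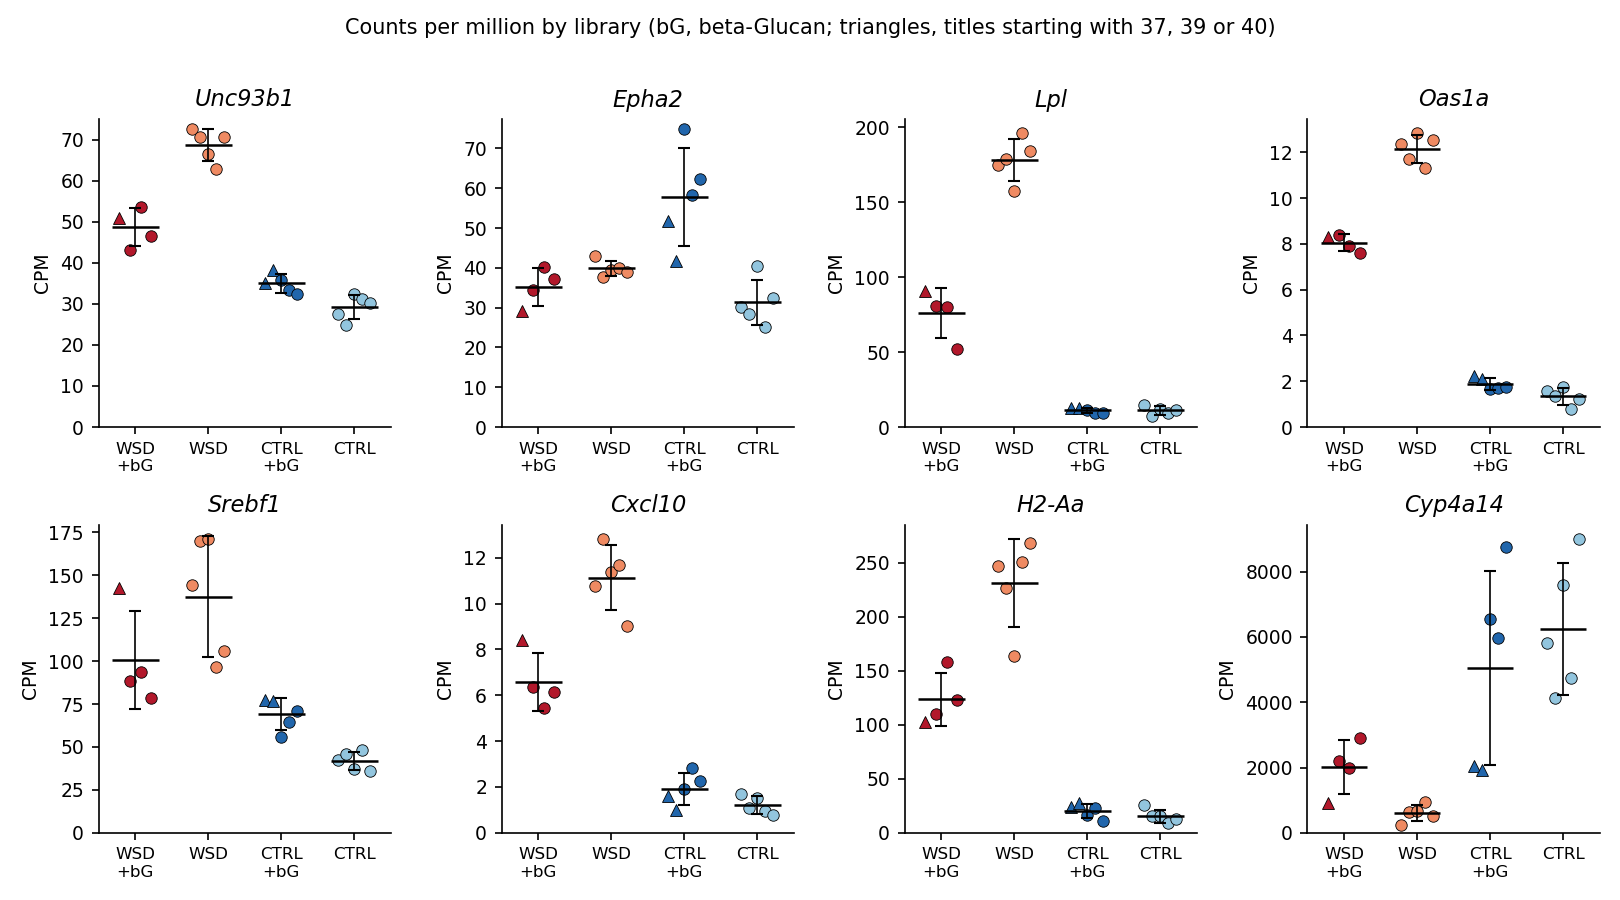
CPM of 8 genes in each library, with groups from left to right WSD+beta-Glucan, WSD, CTRL+beta-Glucan and CTRL. Points are libraries, triangles are the 3 libraries whose titles start with 37, 39 and 40, and bars are the mean and SD. Unc93b1 is lower in all 4 WSD+beta-Glucan libraries than in the 5 WSD libraries, while Epha2 is higher in all 5 CTRL+beta-Glucan libraries than in the 5 CTRL libraries.

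Below the threshold of the fit, the genes nearest to it leaned to one direction. The second smallest adjusted p was 0.115, and 182 genes had an adjusted p under 0.2. Of the 100 genes with the smallest p, 83 had a negative difference and 17 a positive one. At an unadjusted p under 0.05 there were 1865 genes (13.7% of those tested), and these were split evenly, with 938 positive (6.9%) and 927 negative (6.82%). That even split depends on the scaling: it was 694 positive and 1091 negative with RLE size factors, 759 and 1138 with DESeq2, and 154 and 1910 with library totals alone, where the median of all genes moved by -0.17 (log2). The number called was likewise bound to the test, with 139 genes in DESeq2, of which 14 were positive and 125 negative. Leaving out CTRL+beta-Glucan replicate 5 gave 81 genes (10 positive, 71 negative), and 14 of the 19 fits without 1 library gave 0.

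More genes were called for beta-glucan in WSD than in CTRL at the same threshold. In WSD, 53 genes (0.39%) were called, 12 higher (0.0883%) and 41 lower (0.302%), while in CTRL there was 1 (0.00736%), Epha2. At an unadjusted p under 0.05 there were 2118 genes (15.6%) in WSD and 775 (5.7%) in CTRL. Of the 53 called in WSD, 51 had a difference of effects with an unadjusted p under 0.05, 39 of them negative and 12 positive, but both contrasts use the same WSD libraries, so this is a description. In CTRL 4 of these 53 had an unadjusted p under 0.05, a share near the 5.7% of all genes, and 18 had an effect of the same sign there. Leaving out 1 library moved the count in WSD between 2 and 184 genes and that in CTRL between 0 and 2. Across all tested genes, Pearson's r between the effect in WSD and the effect in CTRL was -0.17, a description over genes that are not independent replicates.

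Groups that separate fully in both diets were rare. For 657 genes (4.83%) every WSD+beta-Glucan library was below every WSD library, and for 352 (2.59%) every one was above. In CTRL the same was true of 28 genes (0.206%) below and 38 (0.28%) above. Just 3 genes (0.0221%) were lower in WSD and higher in CTRL without overlap: Unc93b1, Snrpf and Nfkbid. No gene (0 of 13594) had the reverse pattern. Nfkbid, which encodes the nuclear NF-kappaB regulator IkappaBNS, was named after its values were seen. It had 0.714, 0.892, 0.865 and 0.8 CPM in WSD+beta-Glucan, against 1.48, 0.908, 1.38, 1.19 and 1.34 CPM in WSD. In CTRL+beta-Glucan it had 0.505, 0.621, 0.541, 0.417 and 0.247 CPM, against 0.169, 0.183, 0.117, 0.177 and 0.206 CPM in CTRL. The gene is thus scarcely read in any group, and its difference was -2.01 ± 0.39 (edgeR adjusted p = 0.115). Snrpf, a core protein of the spliceosome, had a difference of -0.77 ± 0.16 (adjusted p = 0.128).

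Among protein-coding genes with a mean of at least 2 CPM in some group, the 12 negative genes with the smallest p after Unc93b1 had differences from -1.82 to -0.65 and edgeR adjusted p from 0.115 to 0.128, so none of them passed. In order of p they were Epha2, Lpl, Oas1a, H2-Q4, Slfn5, Il10rb, Abcg1, Gdf15, Snrpf, Samhd1, Tbxas1 and Dok2. DESeq2 gave every one of these 12 an adjusted p under 0.05. In WSD, 10 of the 12 had every WSD+beta-Glucan library below every WSD library, and in CTRL 3 (Epha2, H2-Q4 and Snrpf) had every CTRL+beta-Glucan library above every CTRL library, counts that the choice by p favours.

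Epha2 (ENSMUSG00000006445), a receptor tyrosine kinase for ephrin-A ligands on neighbouring cells, differed through the CTRL diet. It had 51.9, 41.7, 74.9, 58.4 and 62.4 CPM in CTRL+beta-Glucan, against 30.1, 28.5, 40.4, 25.1 and 32.3 CPM in CTRL. In WSD+beta-Glucan it had 29.1, 34.4, 40.1 and 37.2 CPM, against 42.9, 37.8, 39.5, 39.9 and 39.1 CPM in WSD. The CTRL groups did not overlap and the WSD groups did. Epha2 rose 1.85-fold in CTRL (log2 0.89 ± 0.13, adjusted p = 0.0284), while the value in WSD was -0.18 ± 0.14 (adjusted p = 0.56). The difference of effects was -1.06 ± 0.20 (95% interval -1.47 to -0.66). It passed without the 3 libraries, with -1.16 and an adjusted p of 0.0379, and it ranked second by p in the full fit.

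Lpl (ENSMUSG00000015568), the lipase that releases fatty acids from circulating triglycerides, differed through the WSD diet. It had 90.8, 80.6, 80.4 and 51.8 CPM in WSD+beta-Glucan, against 175, 179, 158, 196 and 184 CPM in WSD. It had 12.8, 12.7, 11.2, 9.64 and 9.15 CPM in CTRL+beta-Glucan, against 14.6, 7.62, 12.3, 9.05 and 11.7 CPM in CTRL. Lpl fell to 0.425-fold in WSD (log2 -1.23 ± 0.16, adjusted p = 0.0024), and stood at 0.998-fold in CTRL, with an SE of 0.17 on the log2 scale. The difference was -1.23 ± 0.23 (95% interval -1.71 to -0.75, adjusted p = 0.115). Abcg1, a transporter that moves sterols out of macrophages, had -1.13 ± 0.24, with 15.1, 12.5, 13.1 and 12.5 CPM in WSD+beta-Glucan, against 23.0, 28.5, 24.9, 22.8 and 25.3 CPM in WSD. Its CTRL groups overlapped, at 2.82 to 4.92 CPM in CTRL+beta-Glucan and 2.19 to 4.72 CPM in CTRL.

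Gdf15, a secreted stress cytokine, had the largest difference of the 12, -1.82 ± 0.37 (95% interval -2.61 to -1.04, adjusted p = 0.128). It had 19, 14.3, 25.9 and 16.1 CPM in WSD+beta-Glucan, against 43.9, 33.9, 29.1, 32.2 and 29.8 CPM in WSD. In CTRL+beta-Glucan it had 7.0, 6.21, 9.97, 3.57 and 4.55 CPM, against 3.77, 3.23, 4.37, 2.78 and 1.60 CPM in CTRL. The WSD groups did not overlap, the CTRL groups did, and the effects were 0.557-fold in WSD and 1.97-fold in CTRL, neither past the threshold (adjusted p = 0.12 and 0.79). Fgf21, a hepatokine of the same stress response, had a difference of -1.35 ± 0.65 (unadjusted p = 0.054).

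In whole liver, fewer cells of a type and less RNA per cell cannot be told apart. Il10rb, a chain shared by the receptors for interleukin-10 and type III interferons, had -0.88 ± 0.18 and fell in WSD to 0.626-fold (adjusted p = 0.026). Dok2, an adaptor of blood-cell kinases, had -1.21 ± 0.26 and fell in WSD to 0.507-fold (adjusted p = 0.026). Tbxas1, the thromboxane synthase of macrophages and platelets, had -1.58 ± 0.34, with 4.17 to 5.24 CPM in WSD+beta-Glucan and 7.01 to 10.4 CPM in WSD. In CTRL it was read at 0.742 to 2.24 CPM with beta-glucan and 0.532 to 1.35 CPM without, where the groups overlap.

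**Figure D2:**
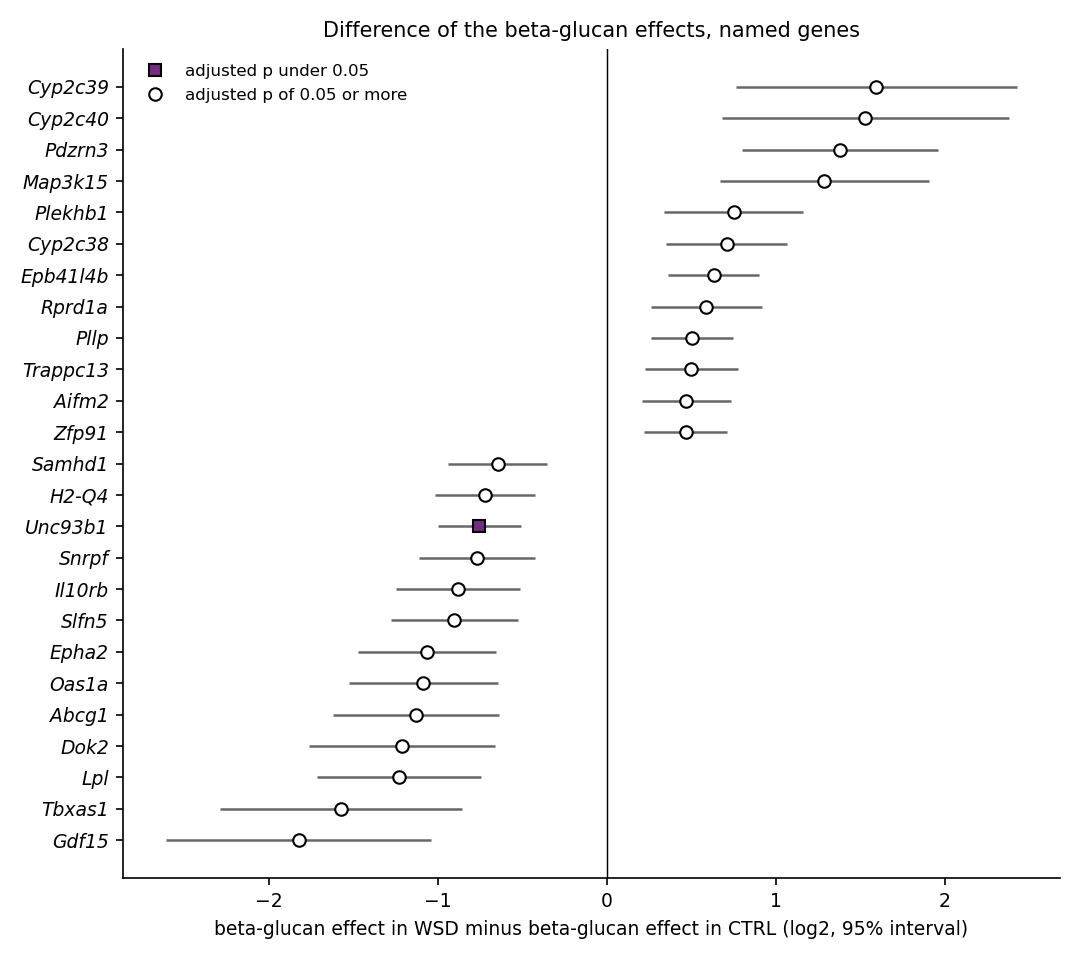
Difference of the beta-glucan effects (effect in WSD minus effect in CTRL, log2) for Unc93b1, the 12 negative genes with the next smallest p and the 12 positive genes with the smallest p, among protein-coding genes with a mean of at least 2 CPM in some group. Points are estimates, lines are 95% intervals, and the filled square marks the adjusted p under 0.05: Unc93b1 at -0.76 has a smaller difference than Gdf15 at -1.82 but a narrower interval.

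Under the same minimum, the 12 positive genes with the smallest p had differences from 0.46 to 1.59 and edgeR adjusted p from 0.115 to 0.181. They were Pdzrn3, Epb41l4b, Map3k15, Pllp, Cyp2c38, Cyp2c39, Zfp91, Trappc13, Plekhb1, Cyp2c40, Aifm2 and Rprd1a. Cyp2c38, Cyp2c39 and Cyp2c40 are cytochrome P450 enzymes for fatty acids, retinoids and drugs, and belong to a family of similar gene copies among which reads can be split with error. Aifm2 encodes the ferroptosis suppressor FSP1, and Zfp91 a ubiquitin ligase. DESeq2 placed 8 of the 12 under an adjusted p of 0.05.

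Pdzrn3, a ubiquitin ligase with PDZ domains, had the smallest p of the positive genes and a difference of 1.38 ± 0.28 (95% interval 0.80 to 1.96). It had 7.74, 4.59, 6.27 and 7.2 CPM in WSD+beta-Glucan, against 4.15, 5.45, 4.41, 4.62 and 3.70 CPM in WSD. In CTRL+beta-Glucan it had 2.96, 2.42, 4.92, 3.48 and 3.12 CPM, against 6.02, 6.83, 7.17, 3.90 and 6.64 CPM in CTRL. Groups overlapped in both diets. Epb41l4b, a cytoskeleton-binding protein, had 0.63 ± 0.13 and rose in WSD to 1.38-fold (adjusted p = 0.033), with 60.6, 59.1, 52.1 and 66.3 CPM in WSD+beta-Glucan, against 40.1, 41.2, 48.5, 50.6 and 35.9 CPM in WSD. Its levels in CTRL were 77.1, 76.8, 83.4, 78.7 and 87.8 CPM with beta-glucan, against 87.7, 84.0, 96.4, 93.2 and 93.6 CPM without. Cyp2c39, a retinoic acid hydroxylase in mice, had 1.59 ± 0.40, with 4.23, 5.14, 4.85 and 6.70 CPM in WSD+beta-Glucan, against 1.38, 2.06, 2.03, 4.53 and 2.32 CPM in WSD. It had 1.88, 2.42, 3.12, 2.13 and 3.02 CPM in CTRL+beta-Glucan, against 3.54, 4.39, 3.67, 1.72 and 4.58 CPM in CTRL. In WSD, 6 of the 12 (Epb41l4b, Map3k15, Pllp, Cyp2c38, Zfp91 and Plekhb1) had every WSD+beta-Glucan library above every WSD library, and in CTRL the groups of all 12 overlapped.

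Genes were then read by lists of known cell types and pathways, each set against the background of 6.82% negative and 6.9% positive genes at an unadjusted p under 0.05. Without the 3 libraries that background was 4.38% negative and 5.39% positive. Both beta-glucan groups hold fewer libraries in that fit, so fewer genes of any kind can reach that level. No list held a gene past the adjusted threshold except that of microbial sensing, through Unc93b1. The lists were chosen with earlier results of these data known, and their counts describe the libraries.

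MHC class II presentation genes and lipid-associated macrophage genes had the most negative medians of the 43 lists. Of 10 MHC class II presentation genes tested, 7 had a negative difference at an unadjusted p under 0.05 and 0 a positive one, with a median of -1.20 against 0.01 over all genes. Their median effect was -0.85 in WSD and 0.40 in CTRL. H2-Aa, the alpha chain of a class II molecule, had 103, 110, 158 and 123 CPM in WSD+beta-Glucan, against 247, 227, 163, 251 and 268 CPM in WSD. It had 23.7, 27.8, 16.2, 22.5 and 11.2 CPM in CTRL+beta-Glucan, against 25.3, 15.3, 15.2, 8.81 and 12.4 CPM in CTRL. The WSD groups were separate by a narrow margin and the CTRL groups overlapped. Its difference was -1.30 ± 0.36 (edgeR adjusted p = 0.191), and that of H2-DMb1, which helps to load peptides, -1.37 ± 0.40. These rest in part on the 3 libraries: without them 2 of the 10 had an unadjusted p under 0.05 and the median was -0.73.

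Of 19 lipid-associated macrophage genes, 11 had a negative difference at an unadjusted p under 0.05 and 0 a positive one, with a median of -1.11. Here the median effect was -0.96 in WSD and 0.12 in CTRL, where most of these genes are barely read. Trem2, a lipid receptor that these cells need, had 7.41, 11.7, 13.9 and 4.46 CPM in WSD+beta-Glucan, against 27.9, 23.6, 20.5, 23.7 and 33.1 CPM in WSD. It had 0.433, 1.12, 0.36, 0.278 and 0.247 CPM in CTRL+beta-Glucan, against 0.619, 0.305, 0.525, 0.473 and 0.206 CPM in CTRL. Trem2 fell in WSD (log2 -1.46 ± 0.28, adjusted p = 0.0276), but its difference of -1.60 ± 0.61 (95% interval -2.89 to -0.32) did not pass, with 78 reads over both CTRL groups. Without CTRL+beta-Glucan replicate 2 the unadjusted p of Trem2 was 0.101. Without the 3 libraries its difference was -0.83 (edgeR unadjusted p = 0.28). Mmp12, the macrophage elastase, fell in WSD to 0.339-fold (adjusted p = 0.00028) and had a difference of -1.22 ± 0.39. Capg, an actin-capping protein, fell to 0.483-fold and had -1.17 ± 0.29. Without the 3 libraries 6 of the 19 had an unadjusted p under 0.05, with a median of -0.69.

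Monocyte and macrophage markers had 8 of 20 negative and 0 positive at an unadjusted p under 0.05, with a median of -0.78. Their summed level was 515.1 to 610.8 CPM in WSD+beta-Glucan, 846.1 to 1026 in WSD, 89.7 to 230.2 in CTRL+beta-Glucan and 75.2 to 218 in CTRL. The WSD groups do not overlap in this sum and the CTRL groups do. None of the 20 was at 0 in every library, and 1 was at 0 in some library. Cd52, a surface glycoprotein of leukocytes, had -1.24 ± 0.30, and Aif1, a calcium-binding protein of macrophages, had -1.05 ± 0.29. Without the 3 libraries 2 of the 20 were negative at an unadjusted p under 0.05, where 4.38% of all genes were. For T and NK cell markers 3 of 18 were negative at that level, and their sum was 15.8 to 27.6 CPM in WSD+beta-Glucan, 15.5 to 42.2 in WSD, 6.68 to 9.45 in CTRL+beta-Glucan and 3.61 to 9.22 in CTRL. Resident Kupffer cell markers, with 3 of 14 negative and 1 positive, summed to 650.8 to 739.6 CPM in WSD+beta-Glucan, 790.7 to 1096 in WSD, 439.3 to 961.3 in CTRL+beta-Glucan and 602.2 to 655.5 in CTRL. Without the 3 libraries 0 of the 18 T and NK cell markers were negative at an unadjusted p under 0.05. Of the 14 Kupffer cell markers, 0 were then negative and 1 positive. The part of these marker levels in the differences of other lists was not tested.

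**Figure D3:**
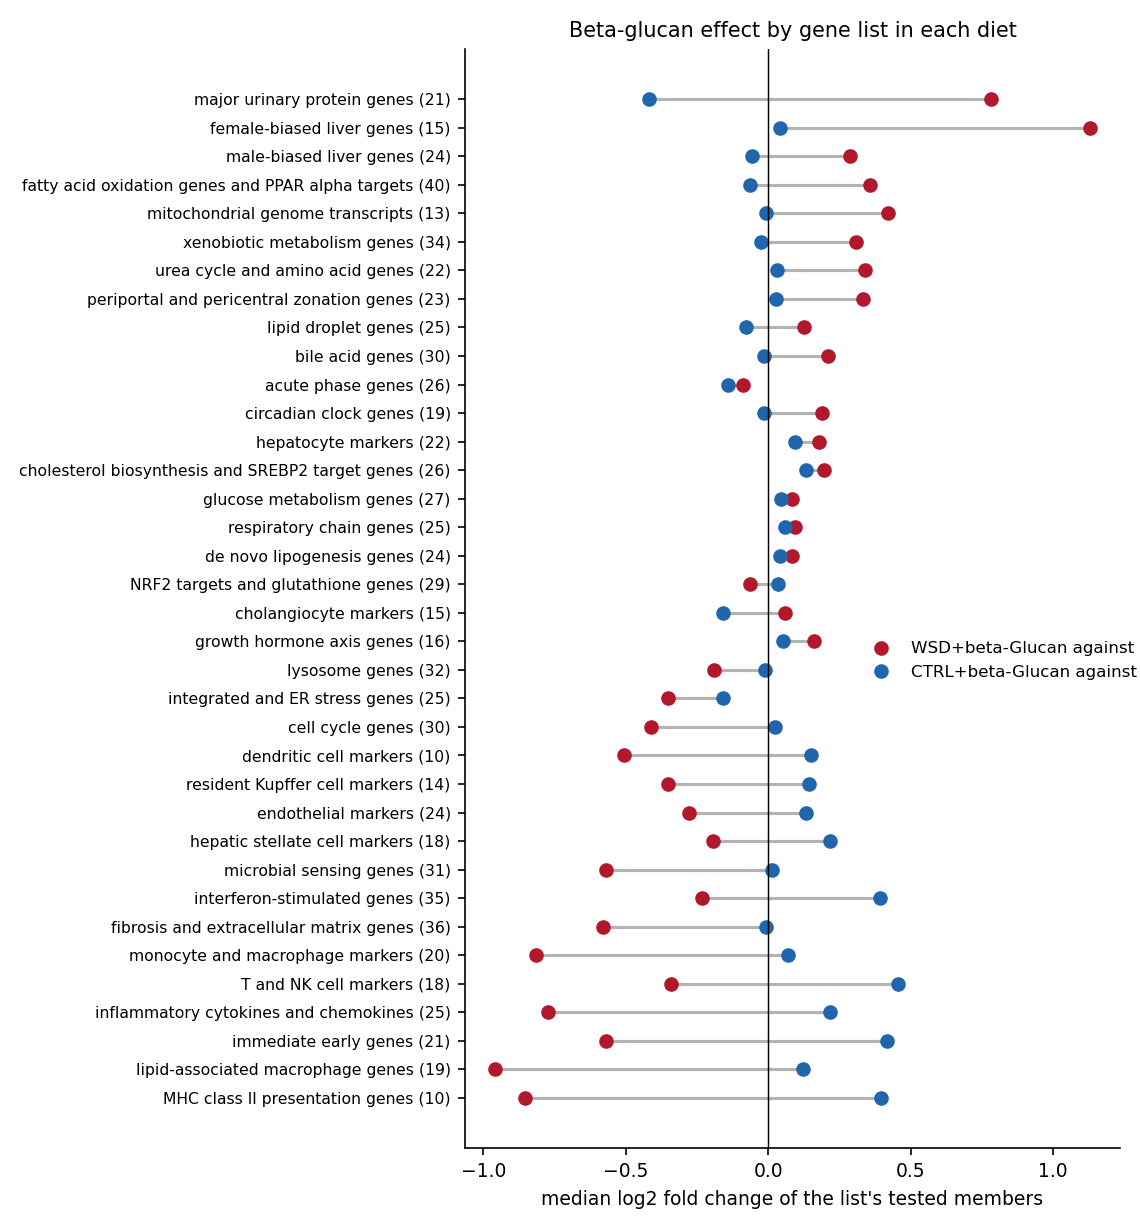
Median log2 fold change of the tested members of each gene list, for WSD+beta-Glucan against WSD and for CTRL+beta-Glucan against CTRL, with lists of at least 10 tested members ordered by their median difference. The number of tested members stands in brackets. MHC class II presentation genes lie at -0.85 in WSD and 0.40 in CTRL, and fatty acid oxidation genes at 0.36 in WSD and -0.06 in CTRL.

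Microbial sensing genes, a list that includes the receptors of beta-glucan and of bacterial products, had 10 of 31 negative and 1 positive at an unadjusted p under 0.05, with a median of -0.56. Clec7a, which encodes dectin-1, had 10.2, 10.9, 11.7 and 10.8 CPM in WSD+beta-Glucan, against 15.4, 27.45, 21.0, 23.1 and 21.2 CPM in WSD. It had 2.17, 1.05, 1.32, 1.16 and 0.494 CPM in CTRL+beta-Glucan, against 1.63, 1.28, 0.758, 0.296 and 0.824 CPM in CTRL. The WSD groups were separate and the CTRL groups overlapped, and the difference was -1.31 ± 0.43 (adjusted p = 0.226). Tlr1, which pairs with other receptors to sense bacterial lipoproteins, had -1.58 ± 0.44, and Cd14, a co-receptor for lipopolysaccharide, had -1.08 ± 0.46. Without the 3 libraries 4 of the 31 were negative at that level and 0 positive. Clec7a then had -0.99 (edgeR unadjusted p = 0.056) and Cd14 -0.68 (0.22).

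Among inflammatory cytokines and chemokines 12 of 25 were negative and 0 positive at an unadjusted p under 0.05, with a median of -0.95. Without the 3 libraries 9 of the 25 were negative at that level. Cxcl10, an interferon-induced chemokine that draws T cells, had 8.4, 6.37, 5.45 and 6.15 CPM in WSD+beta-Glucan, against 10.8, 12.8, 11.4, 11.7 and 9.03 CPM in WSD. It had 1.59, 0.993, 1.92, 2.83 and 2.27 CPM in CTRL+beta-Glucan, against 1.69, 1.1, 1.52, 0.946 and 0.773 CPM in CTRL. Its difference was -1.46 ± 0.33 (95% interval -2.14 to -0.78, adjusted p = 0.132), and without the 3 libraries it was -1.86 and passed, with an adjusted p of 0.0379. Csf1, the growth factor of macrophages, had -0.77 ± 0.17 (adjusted p = 0.128). Ccl2, the monocyte-recruiting chemokine, fell in WSD to 0.371-fold (adjusted p = 0.026) and had a difference of -1.54 ± 0.55. Tnf, a central inflammatory cytokine, had -1.41 ± 0.55 with 25 reads over both CTRL groups.

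Interferon-stimulated genes leaned down with beta-glucan in WSD and up with it in CTRL. Of 35 tested, 17 had a negative difference at an unadjusted p under 0.05 and 0 a positive one, with a median of -0.58. The median effect was -0.23 in WSD and 0.39 in CTRL. At an unadjusted p under 0.05, 12 were lower in WSD and 0 higher, where 7.89% of all genes were lower and 7.69% higher. In CTRL 7 were higher and 0 lower, where 2.86% of all genes were higher and 2.84% lower. Without the 3 libraries 18 of the 35 were negative at that level, where 4.38% of all genes were, and the median was -0.84.

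Oas1a (ENSMUSG00000052776), an enzyme that answers double-stranded RNA by making 2',5'-oligoadenylates, had 8.29, 8.41, 7.92 and 7.62 CPM in WSD+beta-Glucan, against 12.3, 11.7, 12.8, 11.3 and 12.5 CPM in WSD. In CTRL+beta-Glucan it had 2.24, 2.11, 1.68, 1.72 and 1.73 CPM, against 1.57, 1.34, 1.75, 0.769 and 1.24 CPM in CTRL. The WSD groups were separate and the CTRL groups overlapped. Its difference was -1.09 ± 0.21 (95% interval -1.53 to -0.65, adjusted p = 0.115), with 0.663-fold in WSD and 1.41-fold in CTRL. The Oas1 genes are close copies, so reads may be split between them with error. Oasl2, a related protein, had -0.89 ± 0.24 (adjusted p = 0.181).

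Slfn5, a Schlafen protein that interferon induces, was not on the list and had -0.90 ± 0.18, with 13.8, 12.5, 11.5 and 13.1 CPM in WSD+beta-Glucan, against 18.1, 21.1, 17.8, 18.8 and 21.5 CPM in WSD. It had 5.92, 6.02, 8.41, 7.42 and 4.65 CPM in CTRL+beta-Glucan, against 5.68, 5.91, 4.78, 5.26 and 4.94 CPM in CTRL. Samhd1, an enzyme that degrades the nucleotides viruses need, had -0.65 ± 0.14, with 23.9 to 29.4 CPM in WSD+beta-Glucan, 32.0 to 39.0 in WSD, 12.8 to 16.2 in CTRL+beta-Glucan and 9.94 to 13.6 in CTRL. H2-Q4, a nonclassical MHC class I gene with close copies, had -0.72 ± 0.14. It ran from 54.4 to 75.2 CPM in WSD+beta-Glucan and 69.2 to 88.9 in WSD, with overlap. In CTRL it ran from 38.9 to 47.7 CPM with beta-glucan and 27.9 to 37.3 without, and did not overlap.

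The interferon-activated transcription factor complex binds a sequence called the interferon-stimulated response element. The promoters of Oas1a, Slfn5 and Cxcl10 are shown because each holds a match to a short pattern of its letters. Each runs from 250 bases before the start of transcription to 50 after it, from RefSeq (GRCm38.p6), with matches (GAAA, 2 bases of any kind, then GAAA) in capitals. Oas1a lies at chr5:120907476-120907775 (minus strand), Slfn5 at chr11:82951852-82952151 (plus strand) and Cxcl10 at chr5:92348840-92349139 (minus strand).
Oas1a: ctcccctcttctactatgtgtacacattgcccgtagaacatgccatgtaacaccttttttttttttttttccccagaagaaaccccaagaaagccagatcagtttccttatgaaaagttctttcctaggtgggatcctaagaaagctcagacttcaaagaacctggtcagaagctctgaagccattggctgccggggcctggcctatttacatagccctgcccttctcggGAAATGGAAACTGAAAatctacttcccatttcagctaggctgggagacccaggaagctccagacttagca
Slfn5: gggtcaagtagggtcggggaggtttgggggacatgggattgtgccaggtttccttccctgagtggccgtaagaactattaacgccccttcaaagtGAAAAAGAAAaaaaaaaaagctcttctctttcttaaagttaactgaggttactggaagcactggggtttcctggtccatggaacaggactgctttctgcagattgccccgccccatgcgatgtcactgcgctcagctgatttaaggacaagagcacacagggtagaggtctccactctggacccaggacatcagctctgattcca
Cxcl10: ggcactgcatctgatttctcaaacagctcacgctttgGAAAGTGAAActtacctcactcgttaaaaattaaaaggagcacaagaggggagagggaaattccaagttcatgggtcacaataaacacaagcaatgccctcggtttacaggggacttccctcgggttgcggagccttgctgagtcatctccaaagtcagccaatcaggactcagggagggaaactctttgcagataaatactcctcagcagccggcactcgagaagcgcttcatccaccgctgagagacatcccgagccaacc
In Oas1a 2 overlapping matches form 1 run that begins 20 bases before the start. The match in Slfn5 begins 155 bases before the start and that in Cxcl10 213 bases before it. That in Slfn5 runs on into a stretch of A. Searched on both strands, this motif occurs in 1131 of 32851 promoters of this length (3.443%), and in 19 of 28 promoters of the interferon-stimulated list (67.857%; 25 of its 35 genes matched by symbol). It was found in 2 of 9 promoters of the negative genes described above (8 of 13 genes matched) and 0 of 12 of the positive ones (10 of 12 genes matched). The promoters of Samhd1, H2-Q4 and Epha2 held 0 matches, and no promoter was matched to Unc93b1. A different motif, GAGGAAGT, which ETS factors of myeloid cells can bind, was in 3.202% of all promoters, 0 of the 9 and 1 of the 12. A match is a string of letters and not a measured site.

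**Figure D4:**
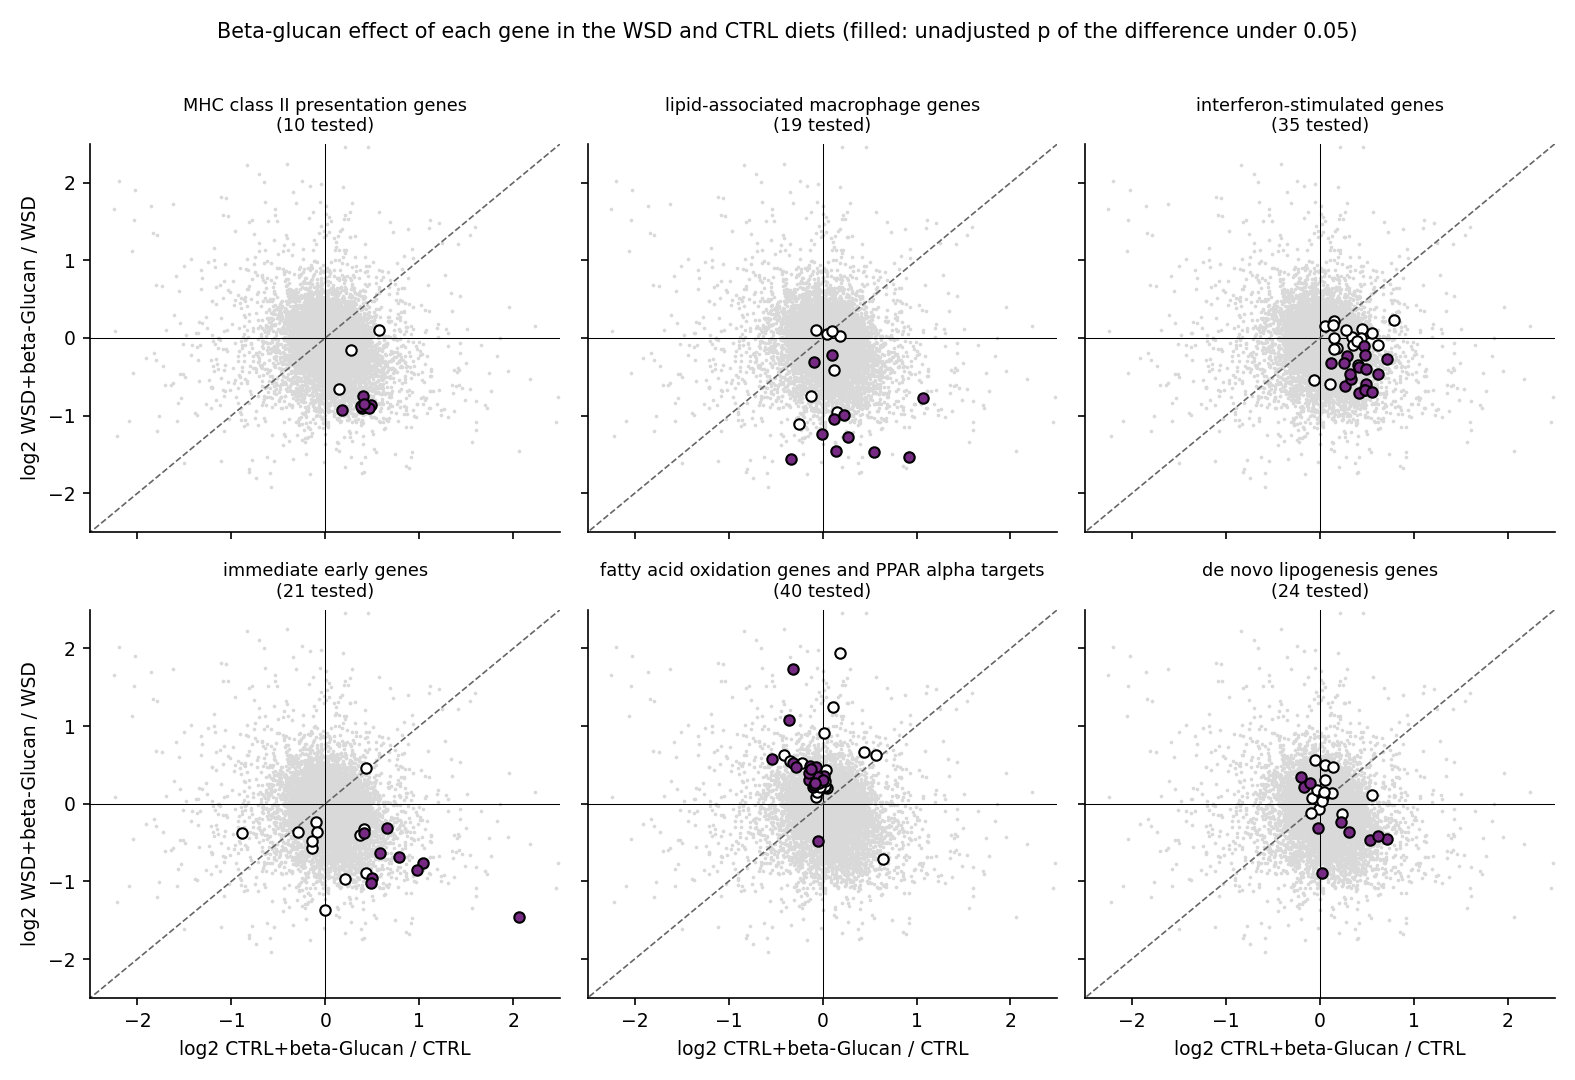
Log2 fold change of each gene for CTRL+beta-Glucan against CTRL (x) and for WSD+beta-Glucan against WSD (y). Grey dots are all 13594 genes (40 lie outside the axes), circles are the members of 6 lists, filled where the unadjusted p of the difference is under 0.05, and the dashed line marks equal effects. The 17 filled interferon-stimulated genes lie below the line and right of 0, whereas fatty acid oxidation genes lie mostly above it.

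Immediate early genes, transcription factors that cells switch on within minutes of a stimulus, had 9 of 21 negative and 0 positive at an unadjusted p under 0.05, with a median of -0.97. Their median effect was -0.57 in WSD and 0.42 in CTRL. Ier2, a nuclear regulator, had 18.9, 15.0, 20.4 and 18.6 CPM in WSD+beta-Glucan, against 26.8, 18.5, 25.3, 22.7 and 20.2 CPM in WSD. It had 36.7, 33.5, 28.1, 23.5 and 16.8 CPM in CTRL+beta-Glucan, against 21.4, 15.5, 21.0, 15.6 and 14.3 CPM in CTRL. Groups overlapped in both diets, and the highest values are those of CTRL+beta-Glucan replicates 1 and 2, which are among the 3 libraries. The difference of Ier2 was -0.97 ± 0.26 (adjusted p = 0.181). Egr2, a zinc-finger factor, fell in WSD to 0.364-fold (adjusted p = 0.033); its 7 reads over both CTRL groups allow no fold there. Without the 3 libraries 6 of the 21 were negative at that level, with a median of -0.68.

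Fibrosis and extracellular matrix genes had 7 of 36 negative and 1 positive, with a median of -0.74. Without the 3 libraries 5 of the 36 were negative and 1 positive. With 1 library left out the negative count ran from 3 (without CTRL+beta-Glucan replicate 4) to 15 (without WSD+beta-Glucan replicate 3). Col1a1, a chain of type I collagen, had a difference of -0.95 ± 0.63 (unadjusted p = 0.15). Hepatic stellate cell markers had 4 of 18 negative and 2 positive at an unadjusted p under 0.05, with 15 of the 18 below 0 and a median of -0.49. Without the 3 libraries 1 of the 18 was negative and 1 positive at that level. With 1 library left out the negative count ran from 1, in 7 of the 19 fits, to 9 (without CTRL replicate 1). Of the positive pair, Acta2, the smooth muscle actin of activated cells, had 5.86 ± 1.81, with single libraries far above the rest: 56.0 CPM in WSD+beta-Glucan replicate 2, where the other libraries of the group had 0.926 to 4.45, and 40.0 CPM in CTRL replicate 4, where the others had 0.408 to 4.79. Without WSD+beta-Glucan replicate 2 it was 3.04 (unadjusted p = 0.062). For cell cycle genes 6 of 30 were negative and 0 positive, a count that ran from 1 (of the 11 tested when a mean of at least 1 CPM was required in every group) to 7 over the alternatives and was 3 without the 3 libraries. Birc5, an inhibitor of cell death in mitosis, had -1.40 ± 0.38. Plk1, a mitotic kinase, had -2.10 ± 0.66. Both were read at under 3 CPM in all 19 libraries.

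Of 40 PPAR alpha targets and other fatty acid oxidation genes, 38 had a positive difference and 2 a negative one, where 48.2% of all genes were negative. At an unadjusted p under 0.05, 18 were positive and 1 negative, and the median was 0.40. The median effect was 0.36 in WSD and -0.06 in CTRL. Cyp4a14, a fatty acid omega-hydroxylase and a sensitive target of PPAR alpha in mice, had 922, 2189, 2000 and 2918 CPM in WSD+beta-Glucan, against 250.1, 641, 681, 929 and 518 CPM in WSD. It had 2057, 1930, 6537, 5956 and 8761 CPM in CTRL+beta-Glucan, against 5809, 4135, 7596, 4741 and 9002 CPM in CTRL. Groups overlapped in both diets. Within both beta-glucan groups the 3 libraries had the lowest values. The difference of Cyp4a14 was 2.04 ± 0.62 (adjusted p = 0.219), and 1.79 without the 3 libraries.

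Slc25a20, the carrier that brings acylcarnitines into mitochondria, had 178, 184, 174 and 208 CPM in WSD+beta-Glucan, against 145, 137, 152, 174 and 136 CPM in WSD. In CTRL+beta-Glucan it had 201, 174, 229, 186 and 230 CPM, against 221, 217, 222, 215 and 221 CPM in CTRL. The WSD groups did not overlap, though their closest pair is equal as printed, and the CTRL groups overlapped. Its difference was 0.43 ± 0.13 (adjusted p = 0.21). Cpt1a, the rate-limiting enzyme of fatty acid entry into mitochondria, had 0.63 ± 0.26 (unadjusted p = 0.024). The count of positive genes in this list depends on the libraries and on the scaling. It was 12 of 40 without the 3 libraries, where 5.39% of all genes were positive. With 1 library left out it ran from 8 to 25 (8 without WSD+beta-Glucan replicate 4). With library totals alone 3 were positive and 2 negative, where 1.13% of all genes were positive and 14.1% negative. Respiratory chain genes of the nucleus, by comparison, had 0 of 25 in either direction and a median of 0.01. The 13 transcripts of the mitochondrial genome all had a positive difference, 1 of them (mt-Co3, 0.79 ± 0.27) at an unadjusted p under 0.05.

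Xenobiotic metabolism genes had 10 of 34 positive and 0 negative at that level, with a median of 0.35, and 9 without the 3 libraries. Nr1i3, which encodes the nuclear receptor CAR that switches on many of these enzymes, had 341, 245, 246 and 308 CPM in WSD+beta-Glucan, against 139.9, 175.5, 204.6, 222 and 145 CPM in WSD. It had 339, 332, 317, 356 and 315 CPM in CTRL+beta-Glucan, against 326, 275, 365, 356 and 299.9 CPM in CTRL. Nr1i3 rose in WSD to 1.61-fold (adjusted p = 0.028) without overlap, and its CTRL groups overlapped. The difference was 0.65 ± 0.18 (95% interval 0.27 to 1.04, adjusted p = 0.191). Cyp2c38 rose in WSD to 1.54-fold (adjusted p = 0.029) and had 0.71 ± 0.17, with 104, 78.7, 84.5 and 103 CPM in WSD+beta-Glucan, against 53.6, 64.9, 50.5, 70.7 and 60.5 CPM in WSD. It ran from 44.0 to 51.8 CPM in CTRL+beta-Glucan and from 37.1 to 60.2 in CTRL.

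Smaller shares were positive in other hepatocyte lists at an unadjusted p under 0.05. With library totals alone 4 of 22 urea cycle genes and 1 of 30 bile acid genes were positive, where 1.13% of all genes were. Urea cycle and amino acid genes had 5 of 22 positive and 0 negative, led by Oat, an enzyme of ornithine breakdown (1.25 ± 0.39). Bile acid genes had 5 of 30 positive and 1 negative, among them Slc10a1, the sodium-dependent uptake carrier, which rose in WSD (log2 0.65 ± 0.14, adjusted p = 0.047) and had a difference of 0.56 ± 0.19. Prlr, the prolactin receptor, rose in WSD (log2 1.14 ± 0.24, adjusted p = 0.048) and had 0.99 ± 0.33. Tm7sf2, a sterol reductase of cholesterol synthesis, rose in WSD (log2 0.63 ± 0.12, adjusted p = 0.028) and had 0.57 ± 0.17. Major urinary protein genes had 5 of 21 positive and 0 negative with a median of 1.06. They are near-identical copies, so single members are uncertain. The list had 14 of 21 positive without the 3 libraries, and 1 to 14 with 1 library left out (1 without WSD+beta-Glucan replicate 2).

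De novo lipogenesis genes had 7 of 24 negative and 3 positive at an unadjusted p under 0.05, with a median of 0.0047. With library totals alone 8 were negative and 0 positive, where 14.1% of all genes were negative and 1.13% positive. Srebf1, which encodes the transcription factor SREBP-1 that drives fatty acid synthesis, had 143, 88.2, 93.5 and 78.8 CPM in WSD+beta-Glucan, against 144, 170, 171, 96.3 and 106 CPM in WSD. It had 77.5, 76.7, 55.6, 64.6 and 71.1 CPM in CTRL+beta-Glucan, against 42.2, 46.1, 37.4, 48.3 and 36.0 CPM in CTRL. The WSD groups overlapped, and every CTRL+beta-Glucan library was above every CTRL library. The difference was -1.17 ± 0.25 (95% interval -1.70 to -0.64, adjusted p = 0.128) and -1.26 without the 3 libraries. Mid1ip1, a partner that makes acetyl-CoA carboxylase polymerise, had -1.04 ± 0.27 and Fasn, the fatty acid synthase, -0.67 ± 0.26. Without the 3 libraries Fasn had -0.33 (edgeR unadjusted p = 0.13). Glucose metabolism genes had 7 of 27 negative and 2 positive at that level with a median of 0.07, and 1 negative and 2 positive without the 3 libraries. Pklr, the liver pyruvate kinase, had -0.46 ± 0.16. G0s2, an inhibitor of the lipase that breaks down stored fat, was 1 of 2 lipid droplet genes with a negative difference at an unadjusted p under 0.05, while 4 of the 25 were positive and the median of the list was 0.24. Its difference was -1.07 ± 0.34, with 259 to 742 CPM in CTRL+beta-Glucan and 143 to 282 in CTRL, while WSD+beta-Glucan ran from 109 to 168 CPM and WSD from 93.3 to 160.5.

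**Figure D5:**
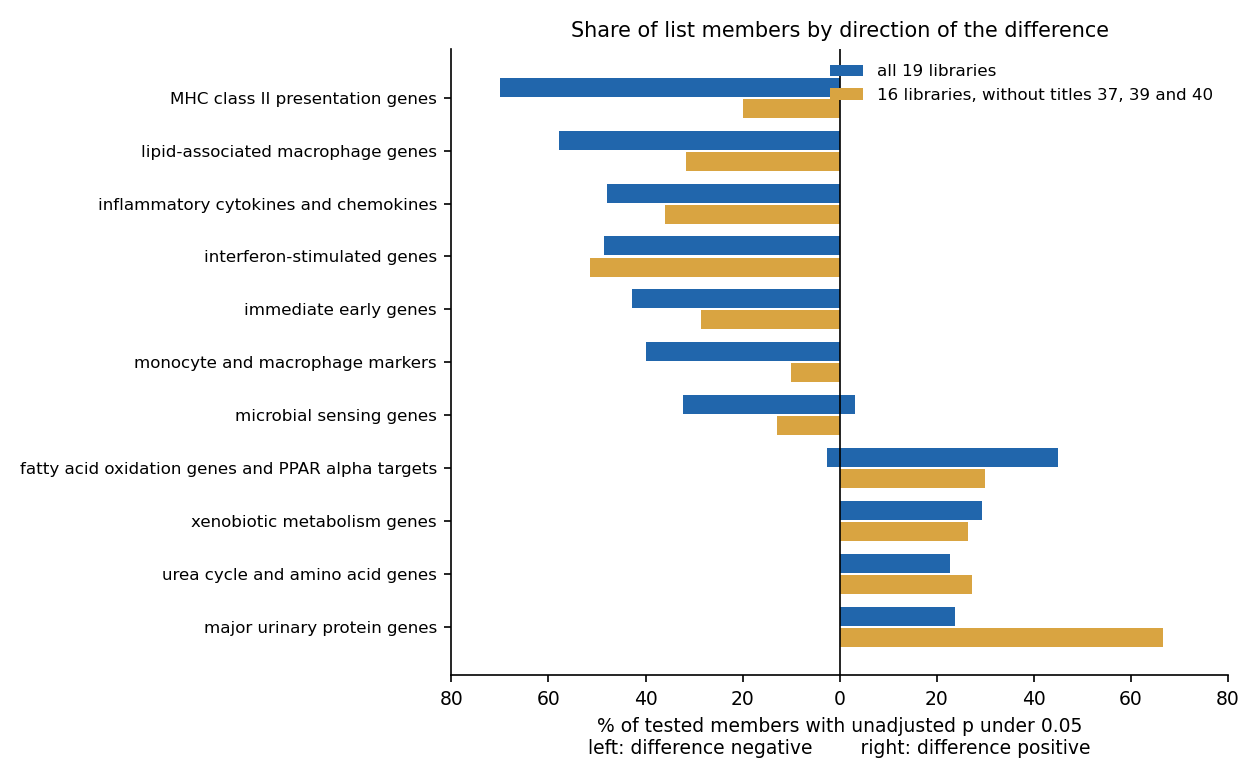
Percent of the tested members of 11 gene lists with an unadjusted p of the difference under 0.05, negative differences to the left and positive ones to the right, in all 19 libraries and in the 16 left without the titles that start with 37, 39 and 40. MHC class II presentation genes have 7 of 10 negative in all libraries and 2 of 10 in the 16, whereas interferon-stimulated genes have 17 and 18 of 35. Over all genes 6.82% are negative and 6.9% positive in all libraries, and 4.38% and 5.39% in the 16.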

How the data were processed

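Liver RNA (PureLink) was made into stranded TruSeq mRNA libraries, per the labels' protocols. Salmon 1.10.1, build GRCm39 and DESeq2 1.38.3 (no role given) come from the submitters' processing notes. The authors deposited expected counts per transcript, TPM (scaled by length within a library) and, as another unit, effective lengths. Of 116546 transcripts, 115977 were matched by identifier to GENCODE M21 (GRCm38, used for names and biotypes alone). Expected counts were summed to genes and rounded. The unmatched transcripts held 0.0623% to 0.1095% of reads.

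In R 4.3.3, edgeR 4.0.16 (filterByExpr, TMM, a mean per group, robust quasi-likelihood F test) tested the difference (WSD+beta-Glucan minus WSD) minus (CTRL+beta-Glucan minus CTRL), with Benjamini-Hochberg adjustment over 13594 genes and a threshold of 0.05. The same fit gave both components. The test was also run on simulated counts, drawn with the spread of these data, the means of WSD, CTRL+beta-Glucan and CTRL, and no odd library. The WSD+beta-Glucan means were set to give no difference of effects, except in genes given a known difference. That run cannot speak to calls that move when a library is left out. The SE is the absolute log2 value over the square root of F. Alternatives were DESeq2 1.42.0, limma 3.58.1 (voom, and untransformed CPM), other scalings, filters, length offsets and left-out libraries. TPM served to compare transcripts and receptors, with no test. Reads carry no molecular identifiers, so the counting error of molecules cannot be read from depth.

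Named are genes past the threshold, 12 per direction next by p (protein-coding, at least 2 CPM in a group), up to 6 per direction called in each diet, 2 per list by p and a panel of 30. Members, lists and panel were chosen with earlier results of these data known.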

Additional observations from a re-analysis of the deposited data

Results flagged for a closer look

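In 140 sets of libraries (35 genes in 4 groups) 5 had a library far from the rest of its group by Dixon's criterion at 95%, where chance flags about 1 in 20 sets. Il10rb was at 11.8 CPM in WSD+beta-Glucan replicate 4, and at 14.2 to 14.7 in the other libraries of that group. Snrpf was at 9.74 CPM in CTRL+beta-Glucan replicate 1, a library whose title starts with 39, and at 8.01 to 8.39 in the others. Zfp91 was at 88.7 CPM in CTRL replicate 5, against 71.4 to 73.4 in the others. Cyp2c40 was at 0.692 CPM in WSD+beta-Glucan replicate 3, against 1.66 to 1.73 in the others. Trem2 was at 1.12 CPM in CTRL+beta-Glucan replicate 2, against 0.247 to 0.433 in the others.

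Unc93b1 is listed because its beta-glucan effects in WSD and in CTRL differed in a test of the difference itself, by -0.7566 on the log2 scale (edgeR adjusted p = 0.0366).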

How the results depend on the processing

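The difference for Unc93b1 was negative in every alternative run, with adjusted p from 9.14e-07 to 0.171. Without the libraries titled 37, 39 and 40 it was -0.7295 and missed the threshold, and with 1 library left out it ran from -0.8075 to -0.7027. On untransformed CPM, where changes in CPM and not folds are compared, the 1 gene called for the difference became 416, which answers another question. It became 3 with library totals alone, 139 with DESeq2, 2 without the 3 libraries and 2 with a term for them. With 1 library left out it ran from 0 to 81 (81 without CTRL+beta-Glucan replicate 5). The cause was not tested. The 1865 genes at an unadjusted p under 0.05 became 1217 to 2703 with 1 library left out.

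The 53 genes called for beta-glucan in WSD became 294 with library totals, 34 at a mean of at least 1 CPM in every group, 436 with DESeq2, 427 with voom, 35 with length offsets, 765 on untransformed CPM, 258 with a term for the 3 libraries, 457 from the 9 WSD libraries alone and 2 to 184 with 1 library left out. The 1 gene called in CTRL became 0 with library totals, on untransformed CPM and from the 10 CTRL libraries alone, 6 with DESeq2, 5 without the 3 libraries, 2 with a term for them and 0 to 2 with 1 library left out. Over single genes and settings, 1 direction reversed, that of Tlr8 on untransformed CPM (-0.2154), 111 values came to pass the threshold and 16 no longer did. No paired analysis was possible because the labels give the groups no shared replicate numbers. The replicate numbers used here follow the order of the samples within each group and pair nothing. Depth limits genes of few reads in CTRL, such as Trem2.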
